A study of Mus musculus with 8 samples.

Results

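The 8 genes described here form the core of the circadian clock: the activators Arntl, Clock and Npas2 and the repressors Per1, Per2, Per3, Cry1 and Cry2. They were taken by name from the non-control probes of mouse gene expression arrays, where 21 probes carried one of these names. They are 8 of the 22368 genes tested and 21 of 56601 non-control probes. RNA came from whole kidney of 8 male mice aged 20 weeks, with 2 mice in each of 4 groups. The normal mice were of the strain C57BLKS/J Iar -m+/m+ and carried a working leptin receptor gene. The other 3 groups were db/db mice, C57BLKS/J Iar -+Leprdb/+Leprdb, which carry the Leprdb mutation on both chromosomes in every cell and become obese and diabetic. One db/db group was untreated, one received control-miRNA-PEI-NPs, and one received miRNA-181b-5p-mimic-PEI-NPs. Both nanoparticle groups thus share the genotype and the PEI carrier, and differ in the RNA they were given. The labels used here state neither dose, route and schedule nor the hour at which kidneys were taken.

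Clock genes are transcribed in a daily cycle in the kidney as in most tissues. Arntl pairs with Clock, or with the closely related Npas2, and the pair binds E-boxes and switches on the Per and Cry genes. The PER and CRY proteins then enter the nucleus and block the activators, so activator and repressor mRNAs peak at different hours of the day. A second loop runs through the nuclear receptors Nr1d1 and Nr1d2, which repress Arntl, and the ROR receptors, which activate it. Per1 is in addition a direct target of the glucocorticoid receptor. In the kidney the clock is known for daily changes in salt handling and filtration.

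Promoter windows from RefSeq (GRCm38.p6, 250 bases before to 50 after a start site) were found for 7 of the 8 members. Per2 had no window and was not searched. The windows were searched on both strands for these motifs: the E-box CACGTG, the D-box TTATGTAA or TTACGTAA, the ROR element TAGGTCA or TGGGTCA, and the cAMP element TGACGTCA. Among all 32851 windows of the same length, 7.15% held the E-box, 1.06% a D-box, 6.45% a ROR element and 1.79% a cAMP element. Some genes have several windows. Counted by gene, with a match in any window, the shares of 27025 genes were 8.09%, 1.23%, 7.35% and 2.03%. An E-box stood in the windows of Per1 and Cry1, 2 D-boxes in that of Per3, and a ROR element 31 bases into the transcript of one of the Arntl starts. None of the motifs was found in the windows of Clock, Npas2 and Cry2. The stretches that hold a match are shown 5′ to 3′ on the strand of the gene, with the motif in capitals, because they are where the activators, the PAR bZIP factors and the ROR and Nr1d receptors are known to act. A match is a description of the letters, not a measured binding site.
Per1, chr11:69098746-69098825, plus strand: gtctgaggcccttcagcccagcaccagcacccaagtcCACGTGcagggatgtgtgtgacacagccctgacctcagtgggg
Cry1, chr10:85185072-85185151, minus strand: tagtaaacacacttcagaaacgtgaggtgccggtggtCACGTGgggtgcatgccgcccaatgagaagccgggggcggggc
Per3, chr4:151044796-151044890, minus strand: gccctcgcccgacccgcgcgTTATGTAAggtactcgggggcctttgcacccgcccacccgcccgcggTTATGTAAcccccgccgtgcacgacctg
Arntl, chr7:113207531-113207558, plus strand: aggcagaaagTAGGTCAgggacggaggt

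The mimic is named after miR-181b-5p. The mature miRNA in RefSeq is shown with its seed, bases 2 to 8, in capitals, because the seed is the part through which a miRNA pairs with mRNAs; the sequence of the administered oligonucleotide itself is not stated in the labels.
miR-181b-5p: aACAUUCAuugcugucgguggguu

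Levels are given as log2 of the intensity over the 75th percentile of the array, so 0 is that percentile, and 1 unit is a doubling. Each gene is represented by its brightest probe, and a probe entered the test where both mice of some group showed it well above background. A difference was called when the limma test with Benjamini-Hochberg adjustment over all 22368 genes gave an adjusted p under 0.05. All 7 comparisons share the estimate of the spread from the same fit, and most pairs of them share arrays. They are therefore not taken to support one another. Replicates are separate mice as labelled. A permutation test of 2 mice against 2 cannot go below an exact p of 0.333, so no such test was used. Of the 21 member probes 17 passed the filter, and each of the 8 genes kept at least 1 probe.

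The arrays held 56.5% to 62.5% of spots well above background, and replicate arrays correlated at r from 0.976 to 0.997. All markers of proximal tubule (5 of 5), loop and distal tubule (4 of 4), collecting duct (3 of 3) and podocyte (4 of 4) passed the filter, so the label kidney is met. Summed scaled levels of markers of other tissues set some arrays apart. The fat markers (5 of 6 tested, without Ucp1) summed to 67.5 in normal mouse 1, to 9.45 in normal mouse 2 and to 8.71 to 12.1 in db/db mice. The sum hides the dimmer fat markers. Their mean log2 level was 1.77 and -1.09 in normal mice and -1.22 in control miRNA mouse 1. In the other db/db mice it lay between -3.44 and -2.54. The urothelium markers (6 of 6 tested) summed to 12.3 and 3.38 in normal mice and to 0.941 to 6.00 in db/db mice. In mimic mouse 1 the neutrophil markers (4 of 4 tested) summed to 35.9 and the tubular injury markers (3 of 4 tested, without Havcr1) to 36.1, against at most 2.65 and 1.74 in all other mice. Proximal tubule markers summed to 326 in that mouse and to 567 to 703 in the others. T cell markers (4 of 5 tested, without Cd8a) summed to 2.48 to 2.69 in normal and 1.17 to 1.67 in db/db mice, macrophage markers (5 of 5) to 15.3 to 16.8 and 6.95 to 11.9, and B cell markers (3 of 4, without Cd79a) to 0.355 to 0.550 and 0.191 to 0.242. Podocyte markers summed to 11.0 to 11.8 in normal and 17.9 to 25.9 in db/db mice, and red cell markers (3 of 3) to 4.83 and 9.81 in normal mice, 3.46 in mimic mouse 2 and 53.7 to 171 in the rest. In whole kidney, fewer cells of a type and less RNA per cell cannot be told apart. All arrays were on 1 slide, normal and untreated mice in the upper row and nanoparticle mice in the lower, so array position and group cannot be told apart. Lepr, the gene that carries the db mutation, differed by -0.87 (adjusted p = 0.0171) between the mean of the db/db groups and normal mice; whether its probe lies in the part the mutation alters was not examined, so this does not check the genotype.

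In untreated db/db kidney Per1 rose 3.40-fold and Per2 rose 5.44-fold over normal kidney. Among the 7 members detected in both groups these 2 were called, beside 3.50% of all genes called in this comparison, and the other 5 did not pass the test. The remaining member, Npas2, was detected in normal kidney only and is described apart from these counts. The levels of 6 of the 7 members did not overlap between the groups, beside 63.2% of all genes. The median difference of the 7 was 1.08, beside -0.04 over all genes. Per2 depended on the normal mice: its difference was 1.71 without normal mouse 1 and 3.17 without normal mouse 2.

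**Figure D1:**
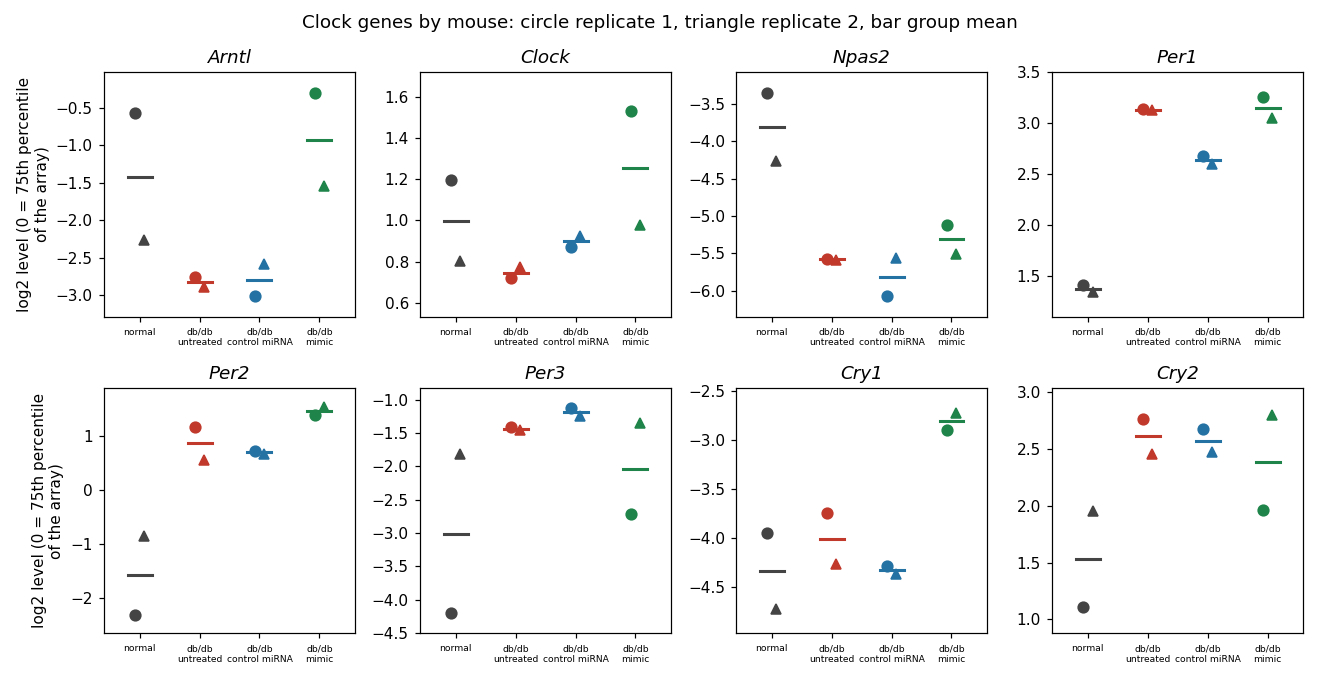
Log2 level (y axis, 0 is the 75th percentile of the array) of the brightest probe of each clock gene in each of the 8 mice, by group (x axis); circles are replicate 1, triangles replicate 2 and bars the group means, and each panel has its own scale. Per1 sits between 1.34 and 1.40 in normal mice and between 2.60 and 3.26 in db/db mice, while Arntl and Per3 spread most within the normal and mimic groups.

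Among the activators, Npas2, the partner of Arntl that can stand in for Clock, was measured by 1 probe (mm9 chr1:39418941-39419000, plus strand). It read -3.36 and -4.27 in the normal kidneys, -5.57 and -5.59 in the untreated, -6.07 and -5.57 in the control miRNA and -5.12 and -5.51 in the mimic kidneys. Only both normal arrays were well above background, so each db/db level is a bound, and the order of the db/db mice is not measured. The probe passed the filter only through the normal group, where it is high, so its p-values rest on that choice and on values below background. To give a fold, each db/db array took the higher of its own signal and the lowest signal of a detected probe. Npas2 was then at least 2.75-fold lower in untreated mice, at least 2.54-fold lower after control miRNA and at least 2.29-fold lower after the mimic. The limma fit used the levels as read, not these bounds, and gave adjusted p = 0.0482, 0.0473 and 0.0455. These bounds hold for the scanner's processed signal. With the normexp background correction, which adds an offset of 50, the differences were -0.67, -0.65 and -0.54. These 3 passed there (adjusted p = 0.0187, 0.0282 and 0.0281), with db/db levels that are still not above background. With quantile normalization none of the 3 passed (0.0543, 0.0582 and 0.0958). The T cell, B cell and macrophage sums given above were also higher in both normal mice than in any db/db mouse. The podocyte sum was lower in both normal mice. For macrophages this held for the sum only. The mean log2 level of the 5 macrophage markers was highest in mimic mouse 1, at 0.477, beside 0.037 and -0.190 in normal mice. The mean log2 level of the fat markers, but not their sum, was higher in both normal mice than in any db/db mouse. The margin was small, with -1.09 in normal mouse 2 and -1.22 in control miRNA mouse 1. The part of these cell types in the Npas2, Per1 and Per2 differences was not tested.

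Arntl, the obligate activator, was brightest on a probe at mm9 chr7:120456978-120457037 on the plus strand. It read -0.57 and -2.27 in normal, -2.76 and -2.90 in untreated, -3.01 and -2.58 in control miRNA and -0.30 and -1.55 in mimic kidneys. All 4 untreated and control miRNA mice lay below all normal and mimic mice, but the normal mice were 3.25-fold and the mimic mice 2.37-fold apart. From high to low the groups ran mimic, normal, control miRNA and untreated; mimic and normal overlapped, as did control miRNA and untreated. The untreated group differed from normal by -1.41 (95% interval -2.91 to 0.09, adjusted p = 0.224), which did not pass the test. Clock, which also acetylates histones, stood at 1.20 and 0.80 in normal, 0.72 and 0.77 in untreated, 0.87 and 0.93 in control miRNA and 1.53 and 0.98 in mimic mice. Its difference between untreated and normal mice was -0.25 (95% interval -0.79 to 0.28, adjusted p = 0.518). Only the neighbours control miRNA and untreated did not overlap in the order mimic, normal, control miRNA, untreated.

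Of the Per repressors, Per1 had the smallest spread (probe at mm9 chr11:68923364-68923423, plus strand). Its levels were 1.40 and 1.34 in normal mice, 3.14 and 3.13 in untreated, 2.67 and 2.60 in control miRNA and 3.26 and 3.05 in mimic mice. Every db/db mouse lay above both normal mice, and both control miRNA mice lay below the other 4 db/db mice. Untreated mice exceeded normal mice by 1.76 ± 0.12 (SE; adjusted p = 0.00550).

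Per2 (brightest probe at mm9 chr1:93312595-93312654, minus strand) stood at -2.32 and -0.85 in normal, 1.17 and 0.55 in untreated, 0.73 and 0.66 in control miRNA and 1.39 and 1.54 in mimic mice. All 6 db/db mice exceeded both normal mice, although the normal mice themselves were 2.76-fold apart. The difference between untreated and normal mice was 2.44 ± 0.46 (SE; adjusted p = 0.0493), just inside the threshold. In the order mimic, untreated, control miRNA and normal, untreated and control miRNA overlapped and the other neighbours did not.

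Per3, the Per protein least needed to keep the cycle running, ranged from -4.21 and -1.81 in normal mice to -1.41 and -1.45 in untreated, -1.13 and -1.24 in control miRNA and -2.72 and -1.35 in mimic mice. Normal mouse 1 was 5.26-fold below normal mouse 2, and mimic mouse 1 was 2.59-fold below mimic mouse 2, whereas the other 4 mice lay close together. Untreated mice differed from normal mice by 1.58 (95% interval -0.34 to 3.49, adjusted p = 0.274).

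The Cry genes encode the strongest repressors of the loop. Cry1 levels were -3.95 and -4.72 in normal mice, -3.74 and -4.27 in untreated, -4.29 and -4.36 in control miRNA and -2.89 and -2.72 in mimic mice. Both mimic mice lay above all other mice; control miRNA and normal mice overlapped. The untreated minus normal difference was 0.33 (95% interval -0.37 to 1.03, adjusted p = 0.525). Cry2 levels were 1.11 and 1.95 in normal, 2.77 and 2.46 in untreated, 2.68 and 2.47 in control miRNA and 1.96 and 2.80 in mimic mice. Both normal mice lay below every db/db mouse, by a margin of less than 0.01 between normal mouse 2 and mimic mouse 1. The Cry2 difference between untreated and normal mice was 1.08 (95% interval 0.19 to 1.97, adjusted p = 0.144), not called.

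The Per1 call in untreated mice was lost without untreated mouse 1 (adjusted p = 0.0694) or mouse 2 (0.0628), and the Per2 call without normal mouse 1 (0.0948), either untreated mouse (0.245 and 0.187) or either control miRNA mouse (0.101 for each). Npas2 passed only without one of the mimic mice, and not without each of the other 6 mice (adjusted p from 0.0758 to 0.231).

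**Figure D2:**
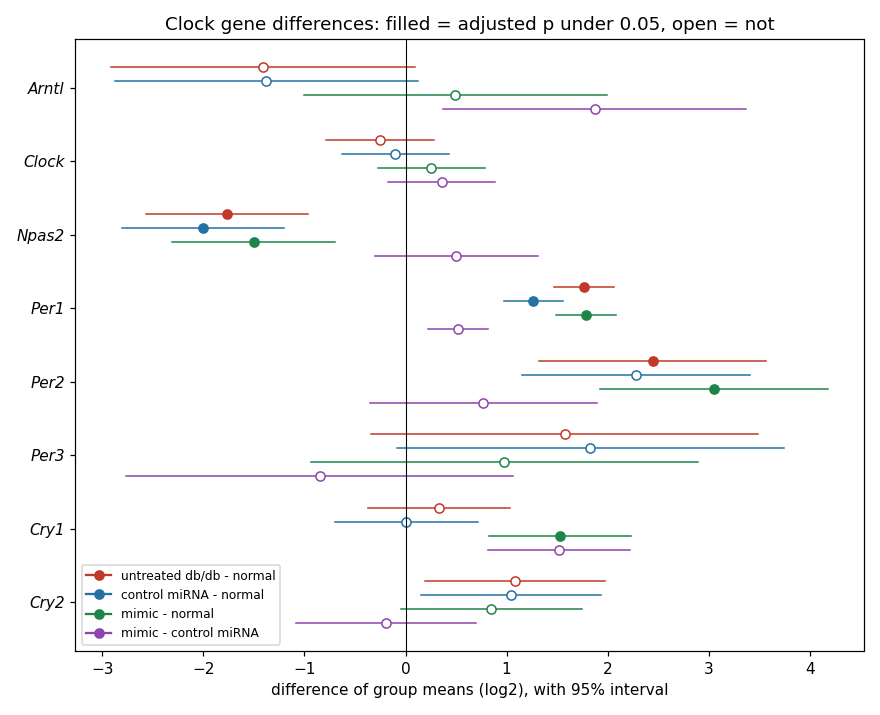
Difference of group means (x axis, log2) with its 95% interval for each clock gene (y axis) in 4 comparisons, shown by colour; filled points passed the adjusted p threshold of 0.05 and open points did not. Per1 lies to the right with the narrowest intervals in the 3 comparisons with normal mice, at 1.76, 1.26 and 1.78; the Npas2 points use db/db levels that are not above background.

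After control miRNA, Per1 rose 2.40-fold over normal kidney (1.26 ± 0.12 SE, adjusted p = 0.0153). It was the 1 of 7 members detected in both groups that was called, beside 1.87% of all genes; 5 of the 7 had groups that did not overlap, beside 59.0%. Per2 differed by 2.28 ± 0.46 (SE; adjusted p = 0.0696), not called, but passed with the normexp background correction (1.94, 0.0344). Per3 (1.83, 0.248), Cry2 (1.04, 0.180), Arntl (-1.38, 0.264), Clock (-0.10, 0.825) and Cry1 (0.01, 0.989), each with its adjusted p, did not pass either. The Per1 call and that of Npas2 were lost when any normal, untreated or control miRNA mouse was left out (adjusted p from 0.0656 to 0.124 for Per1 and from 0.0843 to 0.217 for Npas2). Without mimic mouse 1 or mimic mouse 2, Per2 passed as well (0.0413 in each case).

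After the mimic, 3 of the 7 members detected in both groups were called against normal kidney, beside 8.98% of all genes. Per1 rose 3.44-fold (1.78 ± 0.12 SE, adjusted p = 0.00427), Per2 rose 8.28-fold (3.05 ± 0.46, 0.0174), Cry1 rose 2.88-fold (1.53 ± 0.29, 0.0324). Per2 differed by 2.32 without normal mouse 1 and by 3.78 without normal mouse 2. A second Per2 probe, described below, differed by only 0.09 (adjusted p = 0.823 over probes). With the normexp background correction Cry1 differed by 0.63 (0.0207). The levels of 4 of the 7 did not overlap, beside 53.8% of genes. Cry2 (0.85, adjusted p = 0.181), Per3 (0.98, 0.432), Arntl (0.49, 0.617) and Clock (0.25, 0.461) were not called. The Per1 and Per2 calls were kept whichever mouse was left out. Cry1 passed without normal mouse 1 (0.0485) or mimic mouse 2 (0.0354) and not without each of the other 6 mice (0.0553 to 0.0932), and Npas2 passed in none of the 8 (0.0525 to 0.129). The neutrophil and tubular injury sums of mimic mouse 1 stand beside these calls; without that mouse Cry1 differed by 1.61 (0.0553), Per1 by 1.68 (0.00234) and Per2 by 3.12 (0.0362).

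Over the mean of all db/db groups, Per1 (1.60 ± 0.10 SE, adjusted p = 0.00250) and Per2 (2.59 ± 0.38, 0.0155) were higher than in normal mice: 2 of the 7 members detected in both, beside 11.6% of genes. Per2 differed by 1.86 without normal mouse 1 and by 3.32 without normal mouse 2. The second Per2 probe differed by -0.03 (adjusted p = 0.940 over probes). The levels of 3 of the 7 did not overlap between all db/db and normal mice, beside 34.0% of genes. Cry2 (0.99, 0.0829), Cry1 (0.62, 0.136), Per3 (1.46, 0.182), Arntl (-0.76, 0.345) and Clock (-0.03, 0.921) were not called; Cry2 passed with normexp (1.00, 0.0421) and Cry1 with quantile normalization (0.91, 0.0424). Per1 passed whichever mouse was left out. Per2 did not pass without normal mouse 1 (0.0570) or untreated mouse 1 (0.0506); Cry2 passed without mimic mouse 1 (0.0304).

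Among the db/db groups no member was called, and limma called 0 of the 22368 genes in each of the 3 comparisons. At an unadjusted p under 0.05 there were 1, 2 and 3 members and 724, 3104 and 2082 genes (3.24%, 13.9% and 9.31%) for control miRNA against untreated, mimic against untreated and mimic against control miRNA. Per1 was 0.50 lower after control miRNA than in untreated mice (95% interval -0.79 to -0.21, adjusted p = 0.99985). The comparison that isolates the RNA carried by the nanoparticles is mimic against control miRNA. There Cry1 differed by 1.52 (95% interval 0.82 to 2.22, adjusted p = 0.176), Arntl by 1.87 (0.37 to 3.37, 0.443), Per1 by 0.52 (0.22 to 0.81, 0.268) and Per2 by 0.77 (-0.36 to 1.90, 0.625). Npas2 was below background in both groups, so no fold is given. Clock (0.36, interval -0.18 to 0.89), Cry2 (-0.19, -1.09 to 0.70) and Per3 (-0.85, -2.76 to 1.07) had intervals that include 0. These intervals are wide, and they do not show that the members were alike in the groups. Without Npas2, the levels of 6 of 7 members did not overlap between mimic and control miRNA mice, beside 39.4% of genes; for mimic against untreated these were 4 of 7 beside 47.8%, and for control miRNA against untreated 4 of 7 beside 39.8%. Without mimic mouse 2, Per1 passed against control miRNA (0.62, adjusted p = 0.0286) and Clock against untreated (0.79, 0.0408), while all genes called rose from 0 to 3087 and 4155; the mimic group is then mouse 1 alone, the mouse with the high neutrophil and injury sums, and the other groups supply its spread.

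Several genes had more than 1 tested probe, and some of those disagreed. A second Cry1 probe (mm9 chr10:84594731-84594790) read -7.35 and -7.19 in normal, -4.80 and -5.85 in untreated, -5.63 and -5.77 in control miRNA and -3.28 and -3.18 in mimic mice. Both mimic mice were again highest, and it was well above background on both mimic arrays and on 1 of the other 6. The mimic level was at least 3.31-fold above normal (adjusted p = 0.00446 over 33639 probes, 8.14% of them called) and at least 3.79-fold above control miRNA (0.154, not called). It passed the filter through the mimic group alone, where it is high, so its p-values rest on that choice. They also use normal and control miRNA levels below background. Untreated and normal levels of this probe were below background on 3 of 4 arrays, so no difference between them is given. A second Per2 probe (mm9 chr1:93336538-93336597), well above background on all 8 arrays, stayed between -4.21 and -3.38 and differed by only 0.18 between untreated and normal mice (95% interval -0.40 to 0.77, adjusted p = 0.677). Its interval lies wholly below that of the brightest Per2 probe, so the Per2 difference is a measurement of the brightest probe and not of every Per2 probe. After control miRNA the second Per2 probe differed from normal by -0.35 (adjusted p = 0.439 over probes).

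The 3 tested Arntl probes agreed in direction for untreated against normal mice, at -1.41, -2.06 and -1.46 from the brightest to the dimmest, with none called; the second spans 1684 bases of genome and thus crosses an intron. The 3 Cry2 probes differed in size there, at 1.08, 0.21 and 1.41, again none called. The 2 brighter Per3 probes stood at 1.58 and 0.52, and the dimmest, not above background in normal mice, was at least 1.28-fold higher (adjusted p = 0.309 over probes, not called). For mimic against normal mice the second Per3 probe, the second Cry2 probe and the dimmest Arntl probe were negative, at -0.45, -0.18 and -0.03, where the brightest probes were positive. The second Clock probe differed by -0.12 (adjusted p = 0.758). 1 Arntl probe, 2 Clock probes and 1 Per1 probe did not pass the filter. The array annotation ties the probes to transcripts; their place in exons or UTRs was not resolved here.

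**Figure D3:**
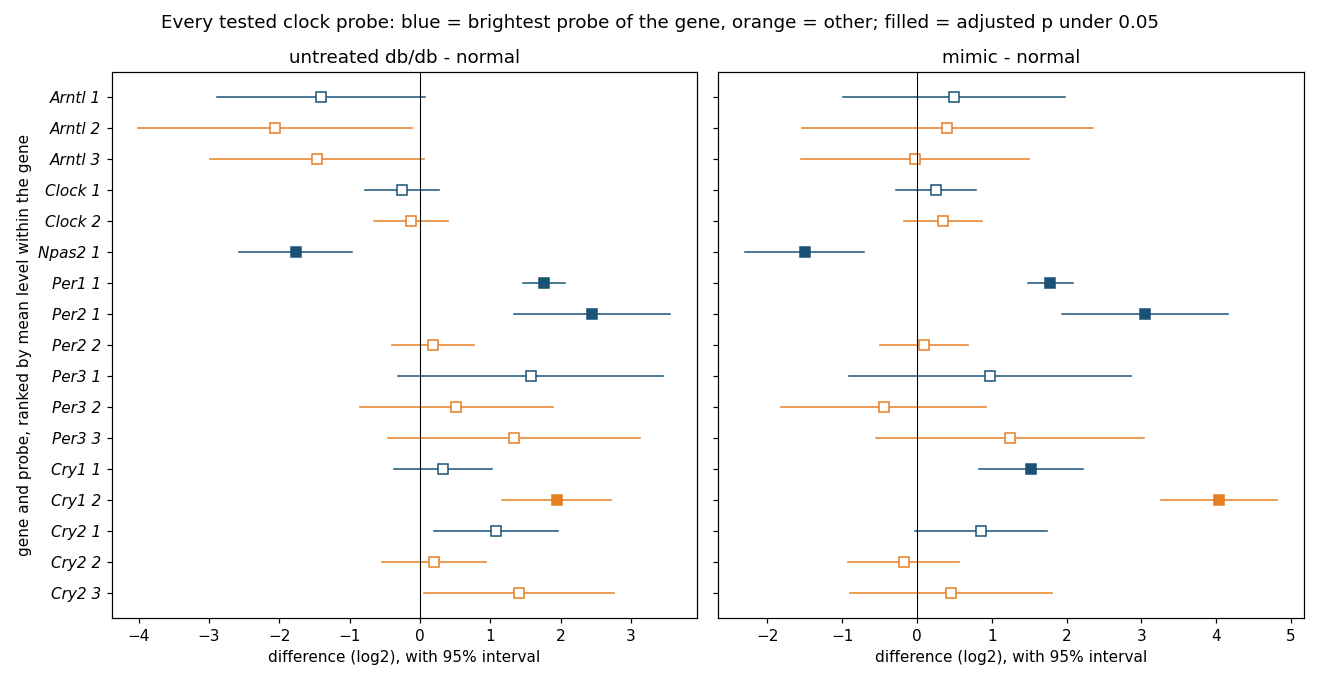
Difference (x axis, log2) with its 95% interval for each of the 17 tested clock probes (y axis, numbered by mean level within the gene), for untreated against normal mice on the left and mimic against normal mice on the right; blue marks the brightest probe of a gene, orange its other probes, and filled squares passed the adjusted p threshold over all probes. The brightest Per2 probe lies at 2.44 on the left and the second at 0.18, while both Cry1 probes are filled on the right; 4.19% of all probes were called on the left and 8.14% on the right, and the second Cry1, the Npas2 and the third Per3 points use levels below background in normal or db/db mice.

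Some members lay far apart between mice of one group in the normal and mimic groups. The median gap between replicates was 0.88 for the members and 0.21 for all genes in normal mice and 0.47 and 0.30 in mimic mice; the gap of Per1 was below that of all genes in both. Replicates were over 2-fold apart for 3 of 8 members in normal mice (Arntl, Per2 and Per3), beside 3.05% of all genes, and for 2 of 8 in mimic mice (Arntl and Per3), beside 11.0%. In untreated (0.733% of genes) and control miRNA mice (1.60%) 0 of 8 members were that far apart. In the normal group, mouse 1 exceeded mouse 2 by 1.70 for Arntl, 0.40 for Clock and 0.91 for Npas2, and lay below it by -1.46 for Per2, -2.40 for Per3 and -0.84 for Cry2. In the mimic group the same differences were 1.25 for Arntl and 0.56 for Clock, with Npas2 below background, and -0.15, -1.37 and -0.84 for these repressors. Mouse 1 of both groups therefore had higher Arntl and Clock and lower Per3 and Cry2 levels than its partner. Cry1 differed by 0.78 in normal and -0.17 in mimic mice and Per1 by 0.07 and 0.21. For Per2 the mimic gap of -0.15 was smaller in size than the median gap of all genes there, 0.30. The second Per2 probe differed by 0.24 in normal and -0.67 in mimic mice, so Per2 showed no shared direction over its probes. Mouse 1 of each group is also the mouse with the high fat sum (normal) or the high neutrophil and injury sums (mimic). The part of these sums in the differences was not tested. With mouse 1 of both groups left out, a setting chosen after the data were seen, Per1 differed by 1.80 and Per2 by 1.71 in untreated against normal mice. The 1 normal mouse left is assumed to vary like the other groups. In that setting Per1 differed by 1.30, Per2 by 1.55 and Per3 by 0.63 after control miRNA. With all mice Per3 differed by 1.83 there. After the mimic Per1 differed by 1.71, Per2 by 2.39 and Cry1 by 2.00. Over the db/db mean Per1 differed by 1.60, Per2 by 1.88, Per3 by 0.49, Cry1 by 1.04 and Cry2 by 0.71.

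**Figure D4:**
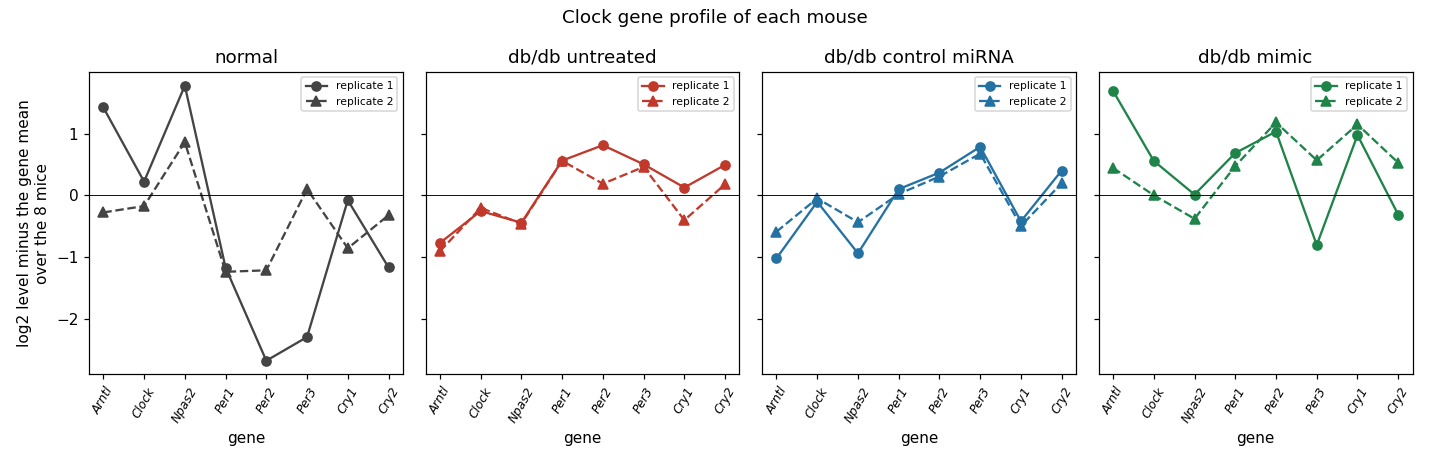
Log2 level minus the mean of the gene over the 8 mice (y axis) for the 8 clock genes (x axis), with a panel for each group and a line for each mouse. The lines of the untreated and control miRNA mice lie close together; in the normal and mimic panels replicate 1 is above replicate 2 for Arntl, by 1.70 and 1.25, and below it for Per3; the Npas2 points of db/db mice are not above background.

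Other genes of the clock were read from a fixed list of 15 partners and outputs, of which 14 were tested and Rorb was not. In untreated against normal mice 1 was higher and 0 lower, beside 3.50% of all genes called, with a median difference of 0.73 beside -0.04 over all genes. That gene was Wee1, a cell-cycle kinase under E-box control, at -1.21 and -0.90 in normal, 0.79 and 0.72 in untreated, 0.56 and 0.51 in control miRNA and 0.30 and 0.97 in mimic mice (1.81, adjusted p = 0.0215). It was called in each of the other comparisons with normal mice too, by 1.59 after control miRNA (0.0367), 1.69 after the mimic (0.0135) and 1.69 over the db/db mean (0.00888). Bhlhe41, a repressor that competes for E-boxes, had the next smallest p (1.27 in untreated mice, adjusted p = 0.105, and 1.18 over the db/db mean, 0.0547); it was well above background on 4 of the 8 arrays.

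In mimic against normal mice Nr1d1 was lower; it, Nfil3, Dbp and Ciart are named here after their values were seen. Nr1d1, the repressor of Arntl and Cry1, read -0.62 and 0.66 in normal, -0.62 and 0.54 in untreated, -0.09 and -0.17 in control miRNA and -2.61 and -2.51 in mimic mice. Both mimic mice were lowest, by -2.58 against normal mice (adjusted p = 0.0340) and by -2.43 against control miRNA (0.212, not called). Nfil3, which represses through D-boxes, was 3.16 and 2.26 in mimic mice against -0.47 and -0.36 in untreated mice, and 1.73 and -0.17 in normal mice (mimic minus normal 1.93, 0.111). The D-box activator Dbp was 1.60 in normal mouse 1 and 1.76 in mimic mouse 1, beside 5.29 and 4.09 in their partners and 5.23 to 5.71 in the other 4 mice; no comparison called it. Ciart, a further repressor of the loop that was well above background on 6 of the 8 arrays, was lowest in the same mice, at -6.99 and -5.96, beside -2.31 and -3.97 in their partners.

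**Figure D5:**
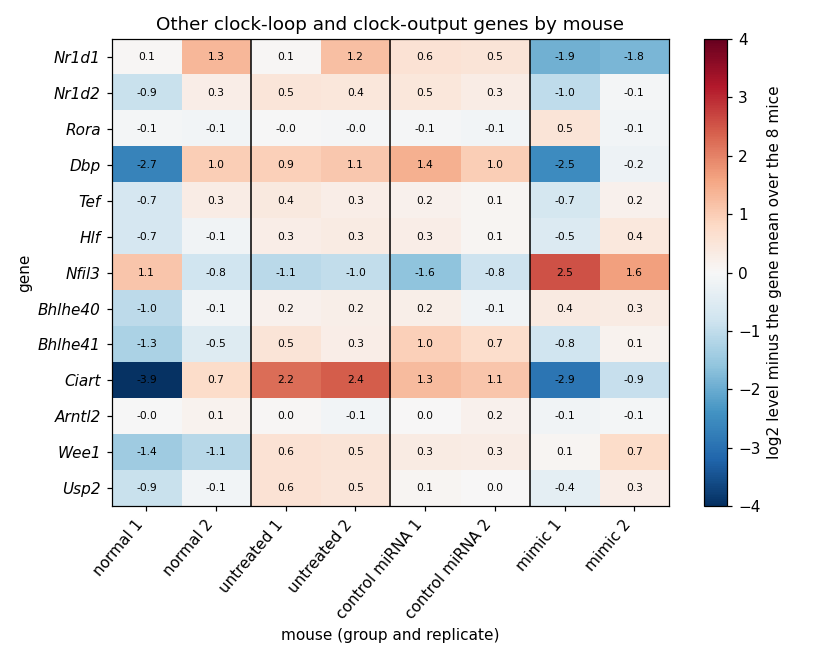
Log2 level minus the mean of the gene over the 8 mice (colour and printed value) for further clock genes of the list (rows) in each mouse (columns, grouped with replicate number). Nr1d1 is lowest in both mimic mice, Dbp and Ciart are lowest in normal mouse 1 and mimic mouse 1, and Wee1 is lowest in both normal mice.

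Of 10 genes that modify clock proteins, limma called 0 in untreated mice and 0 over the db/db mean. Of all genes it called 3.50% and 11.6% there. At an unadjusted p under 0.05 there were 2 and 3 of the 10, beside 5515 and 6999 of all 22368 genes. The smallest p values in untreated mice belonged to the casein kinase genes Csnk1a1 (0.36, adjusted p = 0.112) and Csnk1e (0.51, 0.151), whose kinases act on PER proteins. Over the db/db mean Csnk1e differed by 0.48 (0.0839) and Csnk1a1 by 0.29 (0.0849). The median of the list was 0.13 in untreated mice and 0.10 over the db/db mean, beside -0.04 and -0.06 over all genes.

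Glucocorticoid targets other than the clock genes were listed because Per1 is one of them. Of 10, 1 was higher in untreated mice (3.50% of all genes were called), 2 after control miRNA (1.87%), 5 after the mimic (8.98%) and 4 over the db/db mean (11.6%), and 0 were lower. Their median differences were 0.72, 0.47, 1.75 and 1.02, beside -0.04, -0.04, -0.09 and -0.06 over all genes. The metallothionein genes Mt1 (1.05, adjusted p = 0.00570) and Mt2 (1.08, 0.00712), the anti-inflammatory Tsc22d3 (0.93, 0.0266) and the kinase gene Sgk1 (2.00, 0.0314), which promotes sodium uptake, made up the 4 over the db/db mean; Mt1 was the 1 in untreated mice (0.70, 0.0397). Of 12 immediate early genes, which also respond to stimuli that reach Per1, limma called 0 in untreated mice, beside 3.50% of all genes. At an unadjusted p under 0.05 there was 1, Ier3 (0.90, adjusted p = 0.0892), beside 5515 of 22368 genes. Next was Ier2 (-0.45, 0.302). Over the db/db mean 1 was called, Ier3 (1.25, 0.0174), beside 11.6% of all genes, followed by Atf3 (1.21, 0.0604). After the mimic 2 of the 12, Ier3 (1.66, 0.0144) and Atf3 (2.09, 0.0311), were higher than in normal mice, beside 8.98% of all genes. Mimic mouse 1, with its neutrophil sum of 35.9 and injury sum of 36.1, is 1 of the 2 mice behind the mimic values of both lists; the part of these in the differences was not tested.

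The genes most like each member were found by the root mean square difference of centred log2 levels over the 8 arrays, among the 19251 genes detected on all 8. Per1 was most like Slc38a4, an amino acid transporter gene (0.127), and Dnajb3 (0.158). Cry2 was most like Rtn4r (0.135) and the calcium-binding S100g (0.153), and Cry1 most like Lonrf3 (0.227) and AK087353 (0.232). Per2 lay farther from its nearest genes, Gm6135 (0.394) and Chrdl2 (0.401), as did Per3 from A930038B10Rik (0.413) and Gm16537 (0.514) and Arntl from the linker histone gene H1f5 (0.405) and Ypel2 (0.441). For Npas2, whose db/db levels are not above background, the nearest named gene was the nuclear receptor gene Ppard (0.261). The values are a description over arrays that share their groups, and Clock was left out because its group means span under 1 unit.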

How the data were processed

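Kidney RNA of 8 mice was measured on 1-colour arrays. Per the file headers, Agilent Feature Extraction 12.0.3.1 wrote the deposited intensity of each spot, after background subtraction and detrending, and quality flags; probe coordinates are on mm9. The submitters made Cy3-labelled cRNA from 50 ng of total RNA, per the labels' protocols. The authors' deposited table holds a linear ratio, found from the values to be the array-scaled intensity over the median of the probe; its column medians were 0.971 to 1.08, and it correlated with the scanner values at r of at least 0.9995. It served as an alternative.

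Spots of a probe were averaged, 4 probes with outlier flags were dropped, and each array was scaled to the 75th percentile of its non-control spots before log2 was taken. No spot was saturated. The filter left 33639 probes and 22368 genes, a gene being read from its brightest probe on average. Symbols came from RefSeq tables for GRCm38.p6 where the array's accession, symbol or synonym matched, and otherwise from the array. limma 3.58.1 in R 4.3.3 fitted 1 mean per group over all 8 arrays (4 residual degrees of freedom). The fit was tested on simulated data. The number of arrays limits the precision. For a probe dim on every array of a group, the at-least fold takes, per array, the higher of its own signal and the lowest signal of a detected probe. The adjusted p given with such a fold comes from the fit on the levels as read, not from the bound. Members and lists were chosen with earlier results of these data known. Named genes are the members, the list genes called in untreated against normal mice or over the db/db mean (or the 2 with the smallest p), and the nearest 2 genes in pattern; exceptions are said in the text, and some list genes are not reported here. Alternatives covered background correction, quantile normalization, filters, the fit, the deposited table and leaving out arrays.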

Additional observations from a re-analysis of the deposited data

How the results depend on the processing

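Npas2, whose p-values use db/db levels below background, is counted here, so changes in the counts below include those of Npas2. Against normal kidney, with all mice and without Npas2, 2, 1, 3 and 2 of 7 members were called. These are for untreated, control miRNA, mimic and the db/db mean. The number of members called depended on the mice that entered and on the fit. With one mouse left out at a time it ranged from 0 to 3 for untreated against normal (3 with all mice), 0 to 3 for control miRNA against normal (2), 2 to 3 for mimic against normal (4), 0 to 1 for mimic against untreated and for mimic against control miRNA (0), and 1 to 4 for the db/db mean (3). For untreated against normal, 1 was called without a filter on dim probes and 1 with the replicate number as a block. For control miRNA against normal, 1 was called with quantile normalization, without a filter, with detection on all 8 arrays required, with only the 4 arrays compared, with the replicate block and in the authors' table. For mimic against normal, 2 were called without a filter, 0 with only the 4 arrays compared and 1 with array weights, which come out equal within each pair of replicates. The share of all genes called under these alternatives is not given here. These counts therefore cannot tell a change of the members from a change over all genes. Nothing in the labels says that equal replicate numbers pair the mice. Deviations of same-numbered mice correlated at -0.0193 to 0.159 over all genes. Such a correlation cannot show whether a shared litter, day or hour acts on some genes only.

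No called member changed sign under an alternative that was run. Sign changes were limited to uncalled differences. With normexp, Cry1 was -0.032 in untreated and -0.15 in control miRNA against normal, and Npas2 was 0.021 in control miRNA against untreated; in the authors' table Clock was 0.0032 over the db/db mean. With normal mouse 1 and mimic mouse 1 both left out, Clock was 0.10 in control miRNA against normal and 0.07 over the db/db mean, and mimic against untreated gave -0.09 for Per1, 0.09 for Per3 and 0.19 for Cry2, and mimic against control miRNA 0.23 for Cry2. With one mouse left out, the ranges that cross 0 were -0.059 to 0.72 (Cry1, untreated against normal); -0.38 to 0.40 (Cry1) and -0.30 to 0.10 (Clock) for control miRNA against normal; -0.22 to 2.17 (Per3), -0.36 to 1.34 (Arntl) and -0.023 to 0.53 (Clock) for mimic against normal; -0.18 to 0.25 (Arntl), -0.49 to 0.015 (Npas2), -0.48 to 0.15 (Per2) and -0.19 to 0.12 (Cry2) for control miRNA against untreated; -0.086 to 0.12 (Per1), -1.28 to 0.086 (Per3) and -0.65 to 0.19 (Cry2) for mimic against untreated; -0.61 to 0.23 (Cry2, mimic against control miRNA); and -1.61 to 0.085 (Arntl) and -0.23 to 0.16 (Clock) over the db/db mean. The cause was not tested.

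Among all genes, calls with one mouse left out, ranged from 19 to 3340 (783 with all mice), 17 to 2552 (418) and 322 to 6421 (2008) for the untreated, control miRNA and mimic groups against normal, so a call of a single member near the threshold depends on the spread of all genes. Signal over background limits Npas2 and the second Cry1 probe.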
